A study of Mus musculus with 6 samples.

Results

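The subject is clone 14 of a set of AtT-20 cell clones, set against the clones named 6_1 and 6_2. AtT-20 is a mouse pituitary tumour line of corticotropes, the cells that make the hormone precursor proopiomelanocortin (Pomc). All 3 clones were stably transfected with rat PAM-1, an enzyme of the secretory granule membrane that amidates peptides, under a doxycycline-inducible promoter. The members are the 2 arrays whose titles name clone 14, out of 6 arrays in the series. Clone 14 was kept for 48 h in doxycycline medium (1 array) or control medium (1 array), and so were clone 6_1 (1 array each) and clone 6_2 (1 array each), so that the comparison sets 2 arrays against 4. Every array therefore carries the transgene, and no untransfected AtT-20 cells were analysed here. For doxycycline the protocol states 4 µg/ml, whereas the sample descriptions state 4 mg/ml. The design text calls the clones separate, but the labels do not say how 6_1 and 6_2 are related to each other. Each clone gave 1 culture per medium, so no spread between repeat cultures of a clone could be measured. In the comparison of clone 14 with the others, the spread comes from 2 sources. These are the difference between clones 6_1 and 6_2 and departures from a shared effect of medium. The p-values below hold for these clones, not for clones in general.

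A stable clone grows from a single transfected cell. It carries its own transgene insertion and the genetic and epigenetic state of its founder, and tumour lines are known for cells that differ in chromosome content. Clones of one line can thus differ in transcripts that have no relation to the transgene, and such differences are present with and without the inducer. The comparison asks which transcripts differed between clone 14 and the other clones in both media.

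Total RNA was measured on a bead array of 45281 probes, of which 16902 were above background (detection p under 0.01) on at least 3 arrays and were tested. They stood for 9196 named genes. The arrays were above background on 16196 to 17149 probes. Clone 6_1 in control medium lay farthest out, at 56.5 on the first principal component, against -33.7 to 18.7 for the other 5 arrays. The second component, with 19.21% of the variance, placed clone 14 at 13.7 with doxycycline and 27.5 in control medium, against -23.2 and 3.0 for clone 6_1 and -17.9 and -3.2 for clone 6_2. Of the corticotrope markers 4 of 6 were above background (Pomc, Tbx19, Neurod1 and Crhr1), while Pitx1 and Avpr1b were below it on every array. Markers of other pituitary hormone cells (0 of 8), fibroblasts (0 of 7) and blood cells (0 of 4) were above background on no array. In the longer list of genes of other pituitary hormone cells 1 was measured, the deiodinase Dio2, at 8.06 and 7.54 in clone 14 against 8.34 to 8.57 on the other arrays, a difference of -0.65 that did not pass (limma, adjusted p = 0.113). The exceptions among the remaining markers were Kdr, of 4 endothelial markers, and Sox2, of 4 folliculostellate markers.

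A probe is called here when its clone difference had an adjusted p under 0.05 (limma, Benjamini-Hochberg over all 16902 probes), with medium held as a covariate. Clone 14 differed from clones 6_1 and 6_2 on 287 probes (1.70%), of which 139 were higher (0.822%) and 148 lower (0.876%). They stood for 99 named genes with a higher probe and 110 with a lower one, and no gene had called probes in both directions. Probes of a gene often disagreed in call: of 91 genes with several kept probes and at least 1 called, 19 had every probe called, and 4 had a probe of the opposite sign. This comparison counts the 4 arrays of clones 6_1 and 6_2 as 4 replicates, and with clone at 3 levels 51 probes were called higher and 44 lower. All 287 had the same sign in both media, which the call itself favours because it is made on both media together. On 273 of them both clone 14 arrays lay outside the range of the other 4 arrays, above it on 129 (0.763% of all probes) and below it on 144 (0.852%). Called or not, both clone 14 arrays lay above that range on 1852 of the 16902 probes (11%) and below it on 1993 (11.8%). The call and this position rest on the same arrays, so the position adds no separate evidence. At an unadjusted p under 0.05 there were 3070 probes (18.2%). The smallest called difference was 0.77 on the log2 scale, or 1.70-fold. The filter of at least 3 arrays was uneven between the groups. A transcript above background only on the 2 clone 14 arrays could not be tested. A transcript above background only in clones 6_1 and 6_2 could be. Of the called probes, 23 were above background on neither clone 14 array, and 0 were below it on all 4 other arrays. With every probe kept, which also means more tests, 62.5% of the called probes were higher in clone 14. The split of the calls depends on the scaling of the arrays: with median scaling in place of quantile normalisation, 83.3% of the called probes were higher in clone 14, against 48.4% here, and the median difference of all genes was 0.19 in place of 0.01. Without the control array of clone 6_1 the calls numbered 289 higher and 309 lower, and 285 of the 287 probes were among them. Without the doxycycline array of clone 14 only 12 higher and 11 lower probes were called, and without its control array only 9 and 8. Without the doxycycline array of clone 6_1 or of clone 6_2 the calls were 24 higher and 20 lower, and 31 higher and 24 lower. With clone at 3 levels, 20 of the 62 called probes named by the rule used here lost their call, among them those of Cck, Dclk1, Pnliprp1, Bmp1, Syt4, Usp18 and Smurf1. Of the same 62 probes, 13 kept their call whichever array was left out. These 13 belong to Egr1, Cgas, Panx1, Shfl and Pcdh9 among the genes lower in clone 14, and to Pnliprp2, Mgp, Tex19.1, Bmp7, Lipn and Rab25 (1 of its 2 probes) among those higher.

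Values below are log2 normalised intensities, given for each clone with doxycycline medium before control medium. Differences are clone 14 minus the mean of clones 6_1 and 6_2, adjusted for medium, and probes of different genes are not compared in level.

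Egr1, an immediate early zinc finger transcription factor, gave the largest difference of any tested probe (ILMN_2662926). It read 7.47 and 7.68 in clone 14, against 10.76 and 12.32 in clone 6_1 and 11.12 and 11.86 in clone 6_2. The clone 14 arrays lay far below all the others, while the 2 other clones overlapped each other. The difference of -3.94 (SE 0.24) corresponds to 15.3-fold lower in clone 14 (limma, adjusted p = 5.75e-05). Egr1 stayed above background on both clone 14 arrays. Cgas, the cytosolic DNA sensor cyclic GMP-AMP synthase (ILMN_1239863), read 6.53 and 6.02 in clone 14, against 9.77 and 8.72 in clone 6_1 and 9.72 and 9.42 in clone 6_2. It was 8.78-fold lower in clone 14 (log2 difference -3.13, SE 0.21; limma, adjusted p = 9.80e-05). The groups did not overlap, and both clone 14 values were near the lowest level above background, which was 5.97 to 6.22 on the 6 arrays.

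Panx1, which encodes the pannexin 1 membrane channel that releases ATP, was not well above background on either clone 14 array. It read 5.43 and 5.31 there, against 8.10 and 7.99 in clone 6_1 and 8.20 and 7.93 in clone 6_2, and was at least 3.99-fold lower in clone 14 (limma, adjusted p = 5.75e-05). The other kept Panx1 probe was also called. Shfl, an interferon-induced inhibitor of viral ribosomal frameshifting, showed the same picture, with 5.50 and 5.72 in clone 14 against 7.99 and 8.04 in clone 6_1 and 8.26 and 7.98 in clone 6_2. It was at least 4.01-fold lower in clone 14 (limma, adjusted p = 0.000160). Such bounds set the mean of clones 6_1 and 6_2 against the higher of the probe's own value and the lowest level above background on each clone 14 array.

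Pcdh9, a cell adhesion protein of the protocadherin family, was lower in clone 14 on all 3 of its probes. The probe with the largest difference (ILMN_1248508) read 7.81 and 8.12 in clone 14, against 9.98 and 11.06 in clone 6_1 and 10.17 and 10.35 in clone 6_2, a difference of -2.43 (SE 0.22; limma, adjusted p = 0.000693). Fos, a subunit of the AP-1 transcription factor and like Egr1 an immediate early gene, read 9.14 and 9.89 in clone 14, against 10.69 and 12.57 in clone 6_1 and 10.98 and 12.29 in clone 6_2. It was 4.33-fold lower in clone 14 (log2 difference -2.12, SE 0.22; limma, adjusted p = 0.00203). In every clone Fos read lower with doxycycline than in control medium, but the groups did not overlap within either medium. Without the control array of clone 14 the adjusted p was 0.0870. Fam107a, Ap1m2 and Myo9a were not well above background on either clone 14 array and were at least 1.75-fold, 1.86-fold and 1.74-fold lower. Ap1m2 encodes an epithelial subunit of the AP-1 clathrin adaptor, and Myo9a, called on 1 of its 2 probes, an unconventional myosin. The next genes were Elmo1 (-1.58), which acts in Rac activation, the synaptic adhesion gene Lrfn3 (-1.54), the transcription factor Klf2 (-1.34), the ubiquitin ligase scaffold Cul5 (-1.34), the corepressor Hr on 1 of its 2 probes (-1.33) and the adhesion gene Cadm1 (-1.32). Each of these lost its call without either of the clone 14 arrays, except Elmo1, which lost it without the control array of clone 14 or the doxycycline array of clone 6_2. Cadm1 and Hr lost it also without the doxycycline array of clone 6_2, Cul5 also without that of clone 6_1, and Klf2 without either.

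Among the genes higher in clone 14, Pnliprp2 led. It encodes pancreatic lipase-related protein 2, a secreted lipase. Its probe ILMN_2692167 read 10.95 and 11.23 in clone 14, against 7.76 and 8.15 in clone 6_1 and 8.0 and 8.28 in clone 6_2, which is 8.23-fold higher (log2 difference 3.04, SE 0.17; limma, adjusted p = 5.75e-05). The second probe, ILMN_2990661, gave a difference of 3.00 (SE 0.18). Pnliprp1, of the same lipase family, was 1.93-fold higher, at 8.58 and 9.36 in clone 14 against 7.82 and 7.92 in clone 6_1 and 7.90 and 8.46 in clone 6_2. That call was at the threshold (limma, adjusted p = 0.0496), and it was lost without either clone 14 array and without either doxycycline array of the other clones.

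Mgp, the matrix Gla protein, an inhibitor of calcification that also binds BMP ligands, read 9.74 and 10.17 in clone 14, against 7.59 and 7.06 in clone 6_1 and 7.38 and 7.46 in clone 6_2. It was 6.00-fold higher in clone 14 (log2 difference 2.58, SE 0.21; limma, adjusted p = 0.000354). Bmp7, a secreted ligand of the bone morphogenetic protein family, read 9.70 and 9.79 in clone 14, against 7.81 and 7.37 in clone 6_1 and 7.71 and 7.49 in clone 6_2, and was 4.44-fold higher (log2 difference 2.15, SE 0.17; limma, adjusted p = 0.000354). Neither gene overlapped between the groups. Samd9l, an interferon-inducible growth regulator, read 10.06 and 10.15 in clone 14, against 7.14 and 8.53 in clone 6_1 and 7.32 and 7.38 in clone 6_2 (difference 2.51, SE 0.29; limma, adjusted p = 0.00499). The control array of clone 6_1 was high for Samd9l among the 4 other arrays. The Samd9l call was lost without the doxycycline array of clone 14, at an adjusted p of 0.102.

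Tex19.1, a gene of germ cells and placenta that restrains retrotransposons, read 8.70 and 8.69 in clone 14, against 6.45 and 6.00 in clone 6_1 and 6.48 and 6.70 in clone 6_2, and was 4.88-fold higher (limma, adjusted p = 0.000767). Tex19.1 was above background on 3 of the 4 other arrays, so its fold rests partly on an unmeasured level. Rab25, an epithelial GTPase of recycling endosomes, was higher on both its probes, by 2.06 (SE 0.21) and 2.00 (SE 0.16). The brighter Rab25 probe read 11.55 and 11.56 in clone 14, against 9.64 and 9.38 in clone 6_1 and 9.65 and 9.56 in clone 6_2. Lipn, a lipase known from the epidermis, was 3.94-fold higher (SE 0.16 on the log2 scale; limma, adjusted p = 0.000354), and Gucy2c, the intestinal receptor guanylate cyclase C, was called higher on all 3 of its probes. Gucy2c was above background on both clone 14 arrays but on only 1 of the 4 others, so its fitted difference of 1.91 on the leading probe rests on mostly unmeasured levels in clones 6_1 and 6_2. That call was lost without either clone 14 array and without the doxycycline array of clone 6_1. Cck, the precursor of the peptide hormone cholecystokinin, read 8.97 and 8.46 in clone 14, against 8.34 and 5.69 in clone 6_1 and 7.65 and 6.56 in clone 6_2. It was above background on 3 of these 4 other arrays. Cck had the widest spread among the leading genes, and its difference of 1.66 (SE 0.34; limma, adjusted p = 0.0442) was lost without either clone 14 array or either doxycycline array of the others. The rest of the 15 largest were Dclk1 (1.68), Btf3 on 1 of its 2 probes (1.63), Wipf3 (1.59), the lipid droplet gene Cidea (1.59), Pramel4 (1.44) and the lipopolysaccharide-binding protein Lbp (1.42). Each of these lost its call without the control array of clone 14. Dclk1, Wipf3, Cidea and Lbp lost it also without the doxycycline array of clone 14. Dclk1, Cidea and Lbp lost it also without the doxycycline array of clone 6_1, and Dclk1 also without that of clone 6_2. Dclk1 was above background on only 2 of the 4 other arrays, so its difference rests partly on unmeasured levels.

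**Figure D1:**
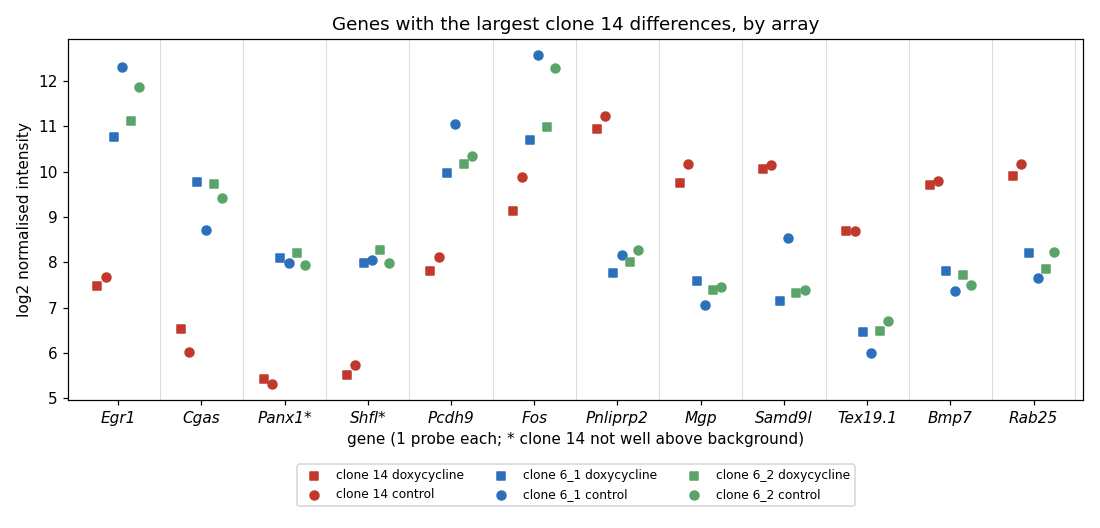
Log2 normalised intensity (y axis) of 12 genes (x axis, 1 probe each) on each of the 6 arrays; red is clone 14, blue clone 6_1 and green clone 6_2, squares are doxycycline medium and circles control medium. For all 12 genes both clone 14 points lie outside the other 4, from Egr1 at 7.47 and 7.68 in clone 14 to Rab25 at 9.91 and 10.17. That position was required of the leading genes from which these were taken.

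The leading differences, which were chosen on both media together, were present in each medium. Across all 16902 probes the clone difference in doxycycline medium correlated with that in control medium at 0.538, a description in which the 2 axes share clones and array platform but no array. Egr1 differed by -3.47 with doxycycline and -4.41 in control medium, Cgas by -3.21 and -3.06, Mgp by 2.26 and 2.91, and Bmp7 by 1.94 and 2.36. The response to doxycycline itself was compared by an interaction term. No probe was called for a response that differed between clone 14 and the others (0 of 16902, 0%; limma), and 342 (2.02%) had an unadjusted p under 0.05. With doxycycline Egr1 changed by -0.22 in clone 14, against -1.56 in clone 6_1 and -0.75 in clone 6_2, an interaction of 0.94 (SE 0.42; limma, adjusted p = 1.00). With 2 residual degrees of freedom and 1 culture per clone and medium, a miss does not show that the responses were alike.

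**Figure D2:**
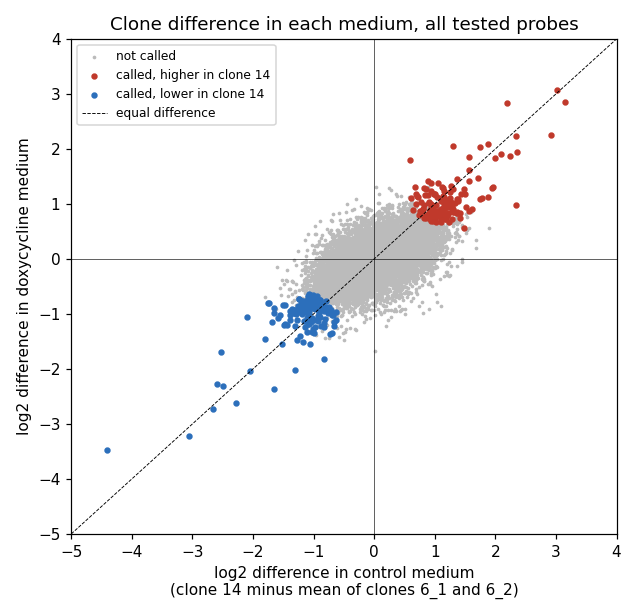
Log2 difference between clone 14 and the mean of clones 6_1 and 6_2 in doxycycline medium (y axis) and in control medium (x axis) for 16902 probes; red points are the 139 probes called higher in clone 14, blue the 148 called lower, grey the rest, and the dashed line marks equal differences. All 287 called probes lie in the lower left or upper right part, with Egr1 at the far lower left. The calls were made on both media together, which favours these parts.

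The clones 6_1 and 6_2 were compared with each other in a fit with 3 clone levels, in which every pair rests on 2 arrays against 2. No probe was called between clone 6_1 and clone 6_2 (0 of 16902, 0%; limma), and 452 (2.67%) had an unadjusted p under 0.05. In the same fit clone 14 differed from clone 6_1 on 14 probes higher (0.0828%) and 9 lower (0.0532%), and from clone 6_2 on 15 higher (0.0887%) and 9 lower (0.0532%). At an unadjusted p under 0.05 these comparisons gave 2634 probes (15.6%) and 1807 probes (10.7%). Both share the clone 14 arrays. Among the 287 called probes the median absolute difference between clones 6_1 and 6_2 was 0.14 and the largest 0.63, beside a median of 1.03 between clone 14 and the pair. The difference between clones 6_1 and 6_2 is part of the residual spread of the clone 14 comparison, so that comparison favours probes on which they were close.

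The called genes were unevenly spread over the chromosomes, which were assigned from the GRCm38.p6 annotation. Here each of the 9196 genes is represented by its brightest probe, of which 80 (0.870%) were called higher and 88 (0.957%) lower. Chromosomes 9, 14 and 18 held 11.4% of the measured genes and 65 of the 88 genes called lower (73.9%), against 7 of the 80 called higher (8.75%). Chromosomes 9 and 14 alone held 8.75% of the genes and 56 of those called lower (63.6%). Chromosomes 8 and 11 held 13.7% of the genes and 22 of those called higher (27.5%). These chromosomes, and the stretches described below, were singled out after their values were seen, so they are given as a description with no test. DNA copy number was not measured, and its part in the pattern was not tested.

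On chromosome 14 the 289 measured genes had a median difference of -0.46, or a level 0.729 times that of the other clones, and 92.0% of them were lower in clone 14. Of these genes 27 were called lower and 1 higher. Both clone 14 arrays lay below the other 4 for 51.9% of the genes, beside 11.6% of all genes. The median was -0.42 in doxycycline medium and -0.45 in control medium, beside -0.01 between clone 6_1 and clone 6_2. It was similar in the dimmer and the brighter genes, at -0.46 and -0.43. Relative to each gene's mean over 6 arrays, the chromosome median was -0.29 and -0.29 in clone 14, against 0.11 and 0.18 in clone 6_1 and 0.15 and 0.18 in clone 6_2. Besides Pcdh9, the called genes included Dnajc3 (-1.32), a chaperone regulator of the ER stress response, the mitochondrial carrier Slc25a30 (-1.31), the transcription factor Klf5 (-1.13), the meiotic cohesin Rec8 (-0.86) and Bmp1, a procollagen protease, on all 3 of its probes.

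On chromosome 9 the 516 measured genes had a median of -0.35, with 85.9% lower in clone 14, 29 called lower and 3 higher. Both clone 14 arrays lay below the others for 45.7% of the genes. The median was -0.32 with doxycycline and -0.37 in control medium, and -0.01 between clone 6_1 and clone 6_2. Cgas, Panx1, Shfl, Ap1m2, Myo9a, Cul5 and Cadm1 all lie on chromosome 9, as does Cck, which went the other way. On chromosome 18 the median of 239 genes was -0.21, with 9 called lower, Egr1 and Syt4 among them, and 3 called higher, Cidea and St8sia5 among them. Syt4, a synaptotagmin of secretory vesicles, was 1.93-fold lower in clone 14, and the sialyltransferase St8sia5 was 2.04-fold higher. The difference of Egr1 was far larger than that of its chromosome, and so were those of Cgas and Pcdh9.

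Chromosome 8 had a median of 0.22 over 491 genes, with 10 called higher and 1, Klf2, called lower. Both clone 14 arrays lay above the others for 31% of its genes, beside 11.8% of all genes. Chromosome 11 had a median of 0.11 over 769 genes, with 12 called higher and 2 lower. Among those higher on chromosomes 8 and 11 were Cdh15, a cadherin known from muscle (2.35-fold), the iodide transporter Slc5a5 (2.16-fold), Tex19.1, the fatty aldehyde dehydrogenase Aldh3a2 (2.31-fold on the leading of its 2 probes) and the mitochondrial ribosomal protein Mrpl55 (2.15-fold). The medians of the 15 other chromosomes lay between -0.03 and 0.10. Without the control array of clone 6_1 the medians of chromosomes 14, 9, 18, 8 and 11 were -0.44, -0.33, -0.21, 0.22 and 0.09. With median scaling, under which the median of all genes shifted as given above, they were -0.28, -0.16, -0.03, 0.40 and 0.30.

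**Figure D3:**
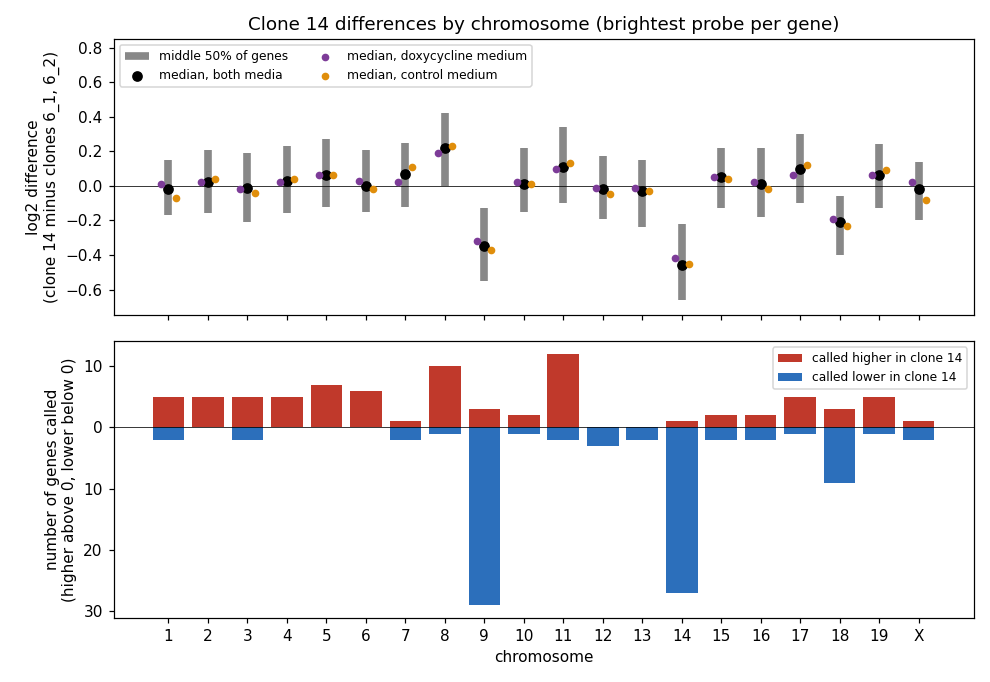
Upper panel: log2 difference (y axis, clone 14 minus clones 6_1 and 6_2) by chromosome (x axis), with the median of all measured genes in both media (black), in doxycycline medium (purple) and in control medium (orange); grey bars span the middle part of the genes, from the lower to the upper quartile. Lower panel: number of genes called higher (red, above 0) and lower (blue, below 0); chromosomes 9 and 14 stand out with 29 and 27 genes lower.

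**Figure D4:**
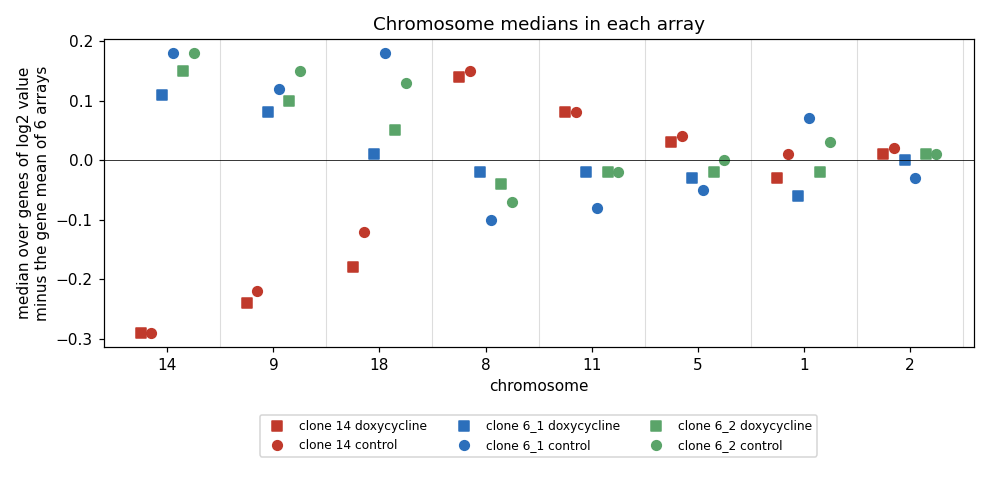
Median over the genes of a chromosome of the log2 value minus the gene's mean over 6 arrays (y axis), for 8 chromosomes (x axis) and each array; colours and symbols mark clone and medium. On chromosomes 14 and 9 the clone 14 arrays sit at -0.29 and between -0.24 and -0.22, below all the others, while on chromosomes 1 and 2 all arrays lie between -0.06 and 0.07.

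Within these chromosomes the differences followed the order of the genes. Each chromosome was divided into runs of 25 neighbouring measured genes, 370 runs in all. On chromosome 14 the first 7 runs, from Gm2897 to Zmym2, had medians of -0.38 to -0.22, and the last 5 runs, from Cryl1 to Tmtc4, had medians of -0.72 to -0.58. The last 5 runs held 24 of the 27 genes called lower on that chromosome, and 111 of their 114 genes were lower in clone 14. On chromosome 9 the 3 runs from Bud13 to Anp32a had the lowest medians, -0.75 to -0.62, and held 16 of the 29 genes called lower. The 6 runs before them lay between -0.56 and -0.26, and the 12 after them between -0.37 and -0.04. Chromosome 18 was even, with run medians between -0.28 and -0.14.

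On chromosome 8 the 8 runs from Insr to Rab8a had medians of 0.25 to 0.56 and the last 4, from Terf2ip onwards, 0.26 to 0.39, while the 8 runs between them lay between -0.11 and 0.18. On chromosome 11 the 9 runs from Asb3 to Ctns had medians of 0.14 to 0.55, with 207 of 225 genes higher and 8 of the 12 genes called higher, and the runs on either side lay between -0.20 and 0.13. On chromosome 5 the last 6 runs, from Clip2 to Hsph1, had medians of 0.25 to 0.47, and the 19 before them lay between -0.09 and 0.16. The remaining 251 runs lay between -0.20 and 0.37, with 9 above 0.20. The steps were present in both media: the last 5 runs of chromosome 14 had medians of -0.67 to -0.57 with doxycycline and -0.90 to -0.56 in control medium, and the high runs of chromosome 11 had 0.24 to 0.40 and 0.12 to 0.72. The same runs had medians of -0.14 to 0.13 between clone 6_1 and clone 6_2 on chromosome 9 and of -0.13 to 0.09 on chromosome 14.

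**Figure D5:**
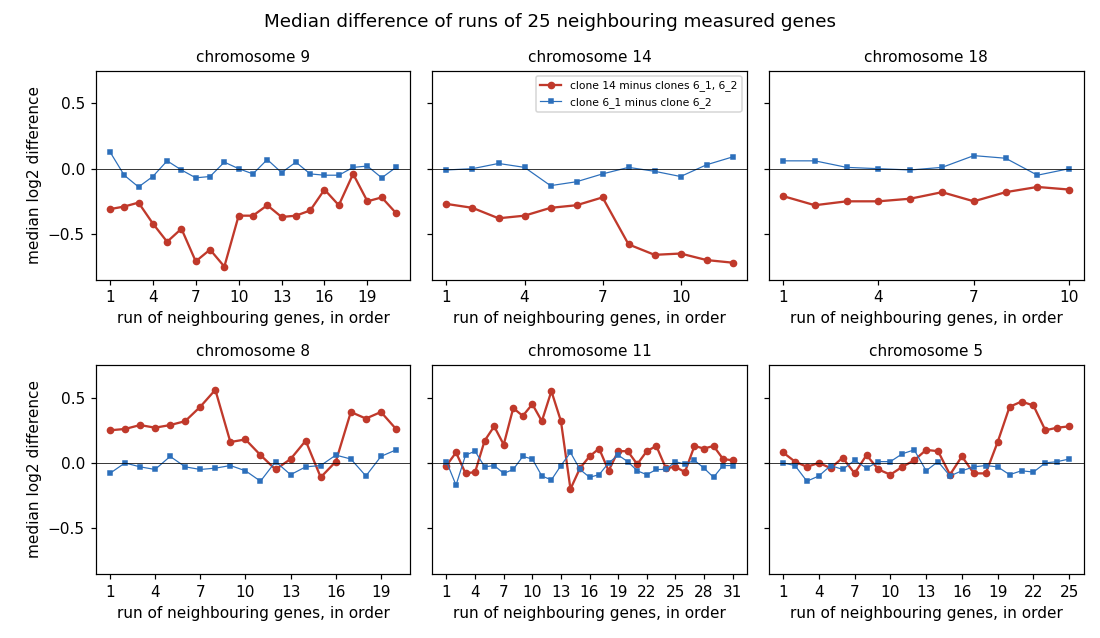
Median log2 difference (y axis) of runs of 25 neighbouring measured genes in their order along 6 chromosomes (x axis, run number); red is clone 14 minus clones 6_1 and 6_2, blue is clone 6_1 minus clone 6_2. The red line steps from above -0.40 to -0.58 and below along chromosome 14, dips to -0.75 on chromosome 9 and rises on parts of chromosomes 8, 11 and 5, while the blue line stays near 0.

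Off chromosomes 9, 14 and 18, 23 genes were called lower and 73 higher among 8152 genes, with a median of 0.04. Those lower included Fos on chromosome 12, Gadd45b on chromosome 10, Elmo1 on chromosome 13 and Lrfn3 on chromosome 7. The leading higher genes lay on chromosomes with medians near 0, such as Pnliprp2, Pnliprp1 and Lipn on chromosome 19, Mgp, Samd9l and Gucy2c on chromosome 6, Bmp7 and Lbp on chromosome 2, and Rab25 and Dclk1 on chromosome 3.

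Gene lists were described with 1 probe per gene, beside all 9196 genes, of which 0.870% were called higher and 0.957% lower, with a median of 0.01. Of 25 measured immediate early genes 0 were called higher and 4 lower (Egr1, Fos, Klf2 and Gadd45b), with a list median of -0.13, which was 0.06 with median scaling. Immediate early genes are switched on within minutes of a growth or stress signal, through promoter sites for SRF and CREB. Klf2 was 2.54-fold lower, at 7.0 and 7.33 in clone 14 against 8.56 and 8.14 in clone 6_1 and 8.47 and 8.85 in clone 6_2 (limma, adjusted p = 0.0206). Gadd45b, a growth arrest and DNA damage response gene, was 2.46-fold lower on 1 of its 2 probes, at 7.15 and 6.97 in clone 14 against 8.76 and 7.78 in clone 6_1 and 8.61 and 8.28 in clone 6_2 (limma, adjusted p = 0.0184). Both calls were lost without either clone 14 array and without either doxycycline array of the others. Jun (-0.57) and Junb (-0.44) also had both clone 14 arrays below the others without passing the test (adjusted p = 0.129 and 0.355), and Jund had both above the others at 0.59, also without passing (adjusted p = 0.144). Atf3, Srf, Zfp36 and Nr4a2 differed by less than 1 SE.

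The promoters of the 3 lower immediate early genes other than Egr1 are shown because these genes share that group but lie on different chromosomes. Each is the stretch of 250 bases before the start in RefSeq, build GRCm38.p6, on the plus strand, written 5′ to 3′, at chr12:85473640-85473889 for Fos, chr8:72318812-72319061 for Klf2 and chr10:80929841-80930090 for Gadd45b. Capitals mark the core of the CREB site, TGACG, searched on both strands.

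Fos: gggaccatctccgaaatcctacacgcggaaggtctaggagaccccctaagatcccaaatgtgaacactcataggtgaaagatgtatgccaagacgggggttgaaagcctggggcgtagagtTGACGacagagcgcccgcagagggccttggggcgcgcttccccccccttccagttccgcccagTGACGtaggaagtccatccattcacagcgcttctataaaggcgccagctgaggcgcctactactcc
Klf2: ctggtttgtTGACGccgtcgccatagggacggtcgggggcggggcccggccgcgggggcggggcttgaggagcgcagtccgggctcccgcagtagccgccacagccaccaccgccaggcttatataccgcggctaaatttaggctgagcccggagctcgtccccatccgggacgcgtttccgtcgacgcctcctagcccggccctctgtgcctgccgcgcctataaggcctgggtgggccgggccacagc
Gadd45b: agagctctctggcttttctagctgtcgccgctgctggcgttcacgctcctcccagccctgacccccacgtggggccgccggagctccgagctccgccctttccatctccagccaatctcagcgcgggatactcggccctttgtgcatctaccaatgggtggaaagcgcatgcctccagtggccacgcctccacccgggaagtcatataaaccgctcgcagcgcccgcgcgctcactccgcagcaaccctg

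The core was found at 2 places in Fos, at 1 in Klf2 and at 0 in Gadd45b, and 17.8% of the 32851 RefSeq promoter windows of that length hold at least 1. The CArG box, the site of SRF, was found in none of these 3 windows and in 1.47% of all windows. These matches are letters in a window, not sites of binding. Sequence outside the windows, including that farther upstream, was not searched. A miss in a window, such as that of the CArG box in Fos, therefore cannot show that the gene lacks the site.

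Of 24 genes of DNA sensing and the interferon response, 1 was called lower (Cgas) and 1 higher (Usp18), with a median of 0.20. Cgas makes the messenger that activates Sting1, which signals through Tbk1 and Irf3. These partners differed by -0.19 (Sting1), -0.08 (Tbk1) and 0.34 (Irf3), and none passed the test. Usp18, an interferon-induced protease that restrains interferon signalling, was higher in clone 14 on both its probes and 1.95-fold higher on the brighter one (limma, adjusted p = 0.0244), a call lost without either clone 14 array and without either doxycycline array of the others. Samd9l and Shfl, both interferon-inducible, went in opposite directions. The 18 class I antigen presentation genes had 0 calls and a median of 0.30, which was 0.17 with doxycycline and 0.46 in control medium. Psmb8, a subunit of the immunoproteasome, read highest among them at 0.75 without passing the test.

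Of 31 genes of BMP and TGF-beta signalling, 2 were called higher (Mgp and Bmp7) and 1 lower (Bmp1, on chromosome 14). Bmp1 is a protease named with the ligands but is not one of them. The ubiquitin ligase Smurf1, which targets receptor-regulated Smad proteins, was called higher on 1 of its 2 probes (2.16-fold). That probe was above background on 3 of the 4 arrays of clones 6_1 and 6_2. The receptors Bmpr1a (-0.86, chromosome 14; limma, adjusted p = 0.0524) and Bmpr2 (-0.30), the signalling proteins Smad1 (0.33) and Smad5 (-0.21) and the target genes Id1 (0.14), Id2 (0.05) and Id3 (0.13) did not pass. Of 6 genes of pancreatic and digestive enzymes 2 were called, Pnliprp2 and Pnliprp1, both higher, and 5 of the 6 had both clone 14 arrays above the others, beside 11.8% of all genes. Of 46 detoxification enzymes 2 were called higher, Aldh3a2 and the glutathione transferase Gstm1 (2.11-fold), and 0 lower. Of 170 solute carriers 4 were called higher and 1 lower. Those higher were Slc5a5, the metal ion transporter Slc11a1 (2.11-fold), the carnitine transporter Slc22a5 on 1 of its 3 probes (1.86-fold) and the cationic amino acid transporter Slc7a2, and the one lower was Slc25a30. Aldh3a2, Gstm1, Slc5a5, Slc11a1, Slc22a5 and Slc25a30 all lost their calls without either clone 14 array.

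Of 20 cadherins and protocadherins 3 were called lower (Pcdh9, Pcdhb6 and Pcdhb22) and 1 higher (Cdh15), with a median of -0.43. Most of them are neighbours in the protocadherin cluster of chromosome 18, and protocadherin genes of one cluster can share probe sequence, so these members are not independent. The 38 genes of granule exocytosis held 1 called lower (Syt4) and 1 higher (Rab26, 2.36-fold on 1 of its 2 probes), and their median was -0.06. Rab26 is a GTPase of secretory granules. The 51 Rab genes and Rab effectors held 2 called higher, Rab25 and Rab26, and 0 lower, with Rab6a called lower on 1 of its 4 probes (-1.05) but not on its brightest. Rab11a (-0.60) and Rab11b (0.23), of the same subfamily as Rab25, did not pass. The glycolytic genes had 1 lower, the pyruvate kinase Pkm on 1 of 2 probes (chromosome 9), and 1 higher, the enolase Eno3 (chromosome 11). Of 13 germline genes Tex19.1 was called higher and Rec8 lower. Of 8 keratins Krt20 was called lower. Of 8 histones the linker histone H1f2 was called lower on both its probes, and of 34 serpins and extracellular proteases Serpini1, neuroserpin, was called lower.

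The genes of corticotrope identity held 0 calls of 19, with a median of -0.10. Pomc read 16.01 and 15.91 in clone 14, against 15.90 to 16.03 on the 4 other arrays, a difference of -0.03 (SE 0.16; limma, adjusted p = 0.944). That probe lies near the top of the range of the array, so it can show little of any difference. The second Pomc probe, at 8.61 and 9.23 in clone 14 against 8.82 and 8.54 in clone 6_1 and 9.09 and 9.28 in clone 6_2, gave -0.01 (SE 0.24). Tbx19, the transcription factor that drives Pomc in corticotropes, read 12.44 and 12.48 in clone 14, against 12.95 and 12.62 in clone 6_1 and 12.71 and 12.50 in clone 6_2. The difference of -0.23 (SE 0.17; limma, adjusted p = 0.508) did not pass. Mouse Pam differed by 0.05 (SE 0.18; adjusted p = 0.903), Uhmk1, the kinase of the study's title, by 0.28 and -0.44 on its 2 probes, the receptor Crhr1 by 0.13 and -0.42, and the glucocorticoid receptor Nr3c1 by -0.28, and none of them passed. Without the control array of clone 6_1 the Nr3c1 difference was 0.02. The deacetylase Hdac2 was called lower on the dimmer of its 2 probes (-1.03). The 21 genes of granule cargo and processing held 0 calls, with a median of 0.02.

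Genes of the respiratory chain and of ribosomes had small positive medians with few calls. The 70 genes of oxidative phosphorylation had 0 calls and a median of 0.29, with 65 above 0. That median was 0.12 with doxycycline and 0.44 in control medium, and 0.19 without the control array of clone 6_1. The 72 mitochondrial ribosomal proteins had 1 call (Mrpl55, higher) and a median of 0.26, which was 0.10 with doxycycline, 0.45 in control medium and 0.16 without the control array of clone 6_1. The 53 cytosolic ribosomal proteins had 0 calls and a median of 0.20, which was 0.05 with doxycycline and 0.32 in control medium. The 196 zinc finger genes had 0 calls and a median of -0.09, which was -0.01 with doxycycline and -0.15 in control medium. The 41 genes of the cell cycle had 0 calls and a median of -0.05.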

How the data were processed

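Total RNA of 6 cultures was hybridised to Illumina MouseWG-6 v2.0 arrays, 1 array per clone and medium. Per the file headers, the deposited table pairs each probe's raw linear intensity, with no background subtracted, with a detection p-value. The authors also deposited processed intensity values with equal array medians, by a normalisation not stated in the labels. The software was BeadStudio and GenomeStudio, per the submitters' processing notes.

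Signals were normalised with neqc of limma 3.58.1 in R 4.3.3 (background estimated from detection p, normexp, offset 16, quantile normalisation, log2). The offset shrinks differences of dim probes. Probes with detection p under 0.01 on at least 3 of 6 arrays were kept, 16902 of 45281, of which 14549 had 1 gene symbol, 5 several and 2348 none. Symbols came from the platform annotation and chromosomes from GRCm38.p6, which held 14535 of the kept probes, with 0 symbols changed. The number of arrays limits the precision.

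The difference between clone 14 and clones 6_1 and 6_2 was fitted with lmFit and eBayes, medium as covariate (degrees of freedom 3 residual and 7.17 prior), two-sided, Benjamini-Hochberg over all kept probes, threshold 0.05. The interaction of clone and medium had 2 residual and 8.51 prior degrees of freedom, and the pairs of clones 2 and 6.95. The script was tested on simulated data with noise independent between arrays, so without any structure between clones. There 17 of 209 called probes had no simulated difference. Of 100 probes changed by 1 on the log2 scale 92 were called, and of 100 changed by 2 all were.

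For genes, lists and chromosomes the probe with the highest mean stood for its gene. Text names all kept probes of Egr1, Cgas, Pnliprp2, Mgp and Bmp7, the 15 largest differences in each direction among called probes outside the range of the other arrays (1 per gene), up to 4 called members of each list by smallest p, and Pomc, Tbx19, Crhr1, Nr3c1, Pam and Uhmk1. Other genes named were chosen after their values were seen. The comparison, members, markers and lists were chosen with earlier results of these data known. Other normalisations, filters, designs and arrays left out were tried as alternatives.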

Additional observations from a re-analysis of the deposited data

Results flagged for a closer look

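Among the 4 arrays of clones 6_1 and 6_2, single arrays stood far from the other 3 on 4 of 71 named probes and for 1 of 6 chromosomes. Chance puts about 1 group in 20 past this limit. Cadm1 read 7.95 on the doxycycline array of clone 6_1, below the other 3. Nr3c1 read 7.79 on the control array of clone 6_1, above the others, and without that array its clone 14 difference was 0.02. Pnliprp1 read 8.46 on the control array of clone 6_2, above the others. Cidea read 7.66 on the control array of clone 6_1, below the others. The chromosome 11 median of that array was -0.08 relative to the mean of 6 arrays, below the other 3, each at -0.02. That flag rests on rounding to 2 decimals, at which the other 3 were tied. Both clone 14 arrays lay outside the 4 others for Cadm1, Pnliprp1 and Cidea also with these values included.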

How the results depend on the processing

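Limits: each clone had 1 culture per medium, and dim probes give only bounds. The cause of the shifts between settings was not tested unless the setting itself shows it. The probes called higher and lower in clone 14 (139 and 148) numbered 654 and 131 with median scaling, 230 and 214 with an offset of 50, 45 and 27 with every probe kept (more tests), and 925 and 913 with array weights. They numbered 51 and 44 with clone at 3 levels, 831 and 743 on clone means over the media, 15 and 11 with no medium term, and 812 and 798 with clone as a random block, whose consensus correlation was -0.333. Without clone 6_1 they were 534 and 498, on control arrays only 69 and 46, and on doxycycline arrays only 10 and 9. With 1 array left out they ranged from 9 to 289 higher and from 8 to 309 lower. In the fits on clone means, without clone 6_2 and on control arrays only, the prior degrees of freedom were infinite, so all probes share 1 spread. Cyclic loess, no background correction, the authors' processed values, the filters at detection p under 0.05 or on all 6 arrays, an intensity trend with robust prior, 1 probe per gene and leaving out clone 6_2 kept both counts within 1.5 times. No named probe that was called changed sign under any setting. Of 62 called named probes 46 lost the call without the clone 14 control array, 44 without its doxycycline array, 33 without clone 6_1 with doxycycline, 32 without clone 6_2 with doxycycline, and 40 with every probe kept. The response difference stayed at 0 calls in every setting that could be fitted, and neither clone 14 array could be left out of that fit. Clone 6_1 against 6_2 gave 0 to 5 calls with 1 array left out and 0 in the other settings. The following were added after seeing the data. Clone 14 against clone 6_1 (23 calls) gave 206 with median scaling, 45 with an offset of 50, 6 with every probe kept, 36 with an intensity trend and robust prior, and 39 to 4508 with 1 array left out. Clone 14 against clone 6_2 (24 calls) gave 82 with median scaling, 5 with every probe kept, 2018 with array weights, and 36 to 1032 with 1 array left out. The chromosome 9 median was -0.16 with median scaling, -0.27 with no background correction, -0.28 on the authors' processed values, -0.11 with every probe kept, -0.37 on control arrays only and -0.37 to -0.32 with 1 array left out. That of chromosome 14 was -0.28, -0.33, -0.33 and -0.14 in the first 4 of these settings, -0.41 with an offset of 50, -0.42 on doxycycline arrays only and -0.45 to -0.42 with 1 array left out. Chromosomes 9 and 14 held 55.6% to 87.5% of the genes called lower over all settings, against 63.6% here. Of 138 list medians 96 moved by less than the spread between arrays, and most of the 42 others moved up with median scaling, as did the median of all genes.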
